A study of Homo sapiens with 4 samples.

Results

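Accessible chromatin was examined around 9 long noncoding RNA genes of prostate cancer: PCA3, PCGEM1, PCAT1, SCHLAP1, DRAIC, ARLNC1, NEAT1, MALAT1 and HOTAIR. They were taken from a fixed list of names, and all 9 were found among the 59679 genes that the RefSeq table of GRCh38.p14 places on the main chromosomes, 18303 of which are long noncoding RNA genes. ATAC-seq, in which a transposase cuts and tags DNA where chromatin is open, was run on LNCaP cells and on resistant cells, with 2 libraries of each. LNCaP is an androgen-responsive human prostate cancer cell line, labelled wild type here. The resistant cells are LNCaP derivatives labelled as treated with enzalutamide, an antiandrogen drug. Their labels name neither a dose nor a subline. By the study's methods, such sublines were selected in stepwise rising enzalutamide in medium with charcoal-stripped serum, whereas the labels give both groups ordinary fetal bovine serum. Each group is 1 cell line or derivative, and nothing in the labels says that its libraries came from separate cultures, so the spread between them may be technical.

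Long noncoding RNAs are transcripts that act, where they act, as RNA: as scaffolds of nuclear bodies, as partners of chromatin complexes or through the act of transcription at their own locus. Several of these genes are transcribed almost solely in prostate epithelium and are known for their link to androgen signalling. PCA3 is the basis of a urine test for prostate cancer, and PCGEM1, DRAIC and ARLNC1 are genes whose RNA is tied to androgen signalling. NEAT1 builds paraspeckles and MALAT1 resides in nuclear speckles of nearly all cells. An open promoter or enhancer marks a place where factors can bind, but it does not by itself give the level of the RNA.

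The files list summits, the most accessible base of each peak, called separately in each library, with the authors' score on the −log10 scale of a p-value or q-value. The LNCaP lists held 117245 and 107344 summits and the resistant lists 70866 and 45618, with no read counts, so sequencing depth is unknown. Scores were therefore ranked within their list, giving percentiles: the share of the list, in percent, that scored no higher than the summit, with 0 for no summit. Since a longer list reaches further down among weak peaks, the counts and the values of the named genes and regions were also taken after cutting each list to its top 45618 summits. A summit was given to a gene when it lay in the gene or within 20 kb of it. Summits widened by 250 bp on either side and merged over the libraries gave 151102 regions, 77 of them at the 9 genes. A region was called shared with a summit in all 4 libraries, LNCaP-specific with one in both LNCaP libraries and neither resistant library, and resistant-specific by the reverse. With 2 libraries against 2, no exact two-sided permutation test can go below p = 0.333, so no test was made, and a gene or region is called higher or lower in resistant cells only where the groups did not overlap. A lower rank in bulk cells cannot tell fewer open cells from less opening per cell. Summits lay within 3 kb of an end of the luminal prostate marker KLK3 in every library, but also of the neuroendocrine markers SYP and CHGA and of 4 of 5 blood, endothelial and fibroblast markers, so that a summit near a gene end did not separate cell types.

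Promoter windows of 300 bases were present in the reference table for 4 of the 9 genes, PCA3, PCGEM1, DRAIC and MALAT1, all on the plus strand. Those of PCGEM1, DRAIC and MALAT1 are shown because summits lay in them. Each runs from 250 bases before the start to 50 bases from it, 5′ to 3′, and the capitals mark the 11 bases centred on each summit, of whichever library. They lie at chr2:192749595-192749894, chr15:69561470-69561769 and chr11:65497488-65497787 of GRCh38.p14.
PCGEM1: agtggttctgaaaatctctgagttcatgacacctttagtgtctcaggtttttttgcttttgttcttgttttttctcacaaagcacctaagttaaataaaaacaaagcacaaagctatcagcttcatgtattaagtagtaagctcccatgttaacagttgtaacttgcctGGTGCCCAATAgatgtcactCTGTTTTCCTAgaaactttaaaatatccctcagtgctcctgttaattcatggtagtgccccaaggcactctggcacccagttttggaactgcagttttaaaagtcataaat
DRAIC: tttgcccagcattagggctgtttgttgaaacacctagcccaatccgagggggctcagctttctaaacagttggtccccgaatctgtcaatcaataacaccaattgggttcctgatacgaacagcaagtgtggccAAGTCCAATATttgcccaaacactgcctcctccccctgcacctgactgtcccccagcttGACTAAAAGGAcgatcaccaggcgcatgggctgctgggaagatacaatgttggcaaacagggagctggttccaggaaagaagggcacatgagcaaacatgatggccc
MALAT1: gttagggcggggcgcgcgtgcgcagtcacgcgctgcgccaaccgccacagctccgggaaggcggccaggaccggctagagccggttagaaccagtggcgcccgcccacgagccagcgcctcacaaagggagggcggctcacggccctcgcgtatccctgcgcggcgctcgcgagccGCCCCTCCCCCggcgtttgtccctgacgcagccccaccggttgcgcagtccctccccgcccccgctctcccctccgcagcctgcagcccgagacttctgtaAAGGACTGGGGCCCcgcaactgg
Counted in bases from the start, with negative numbers before it, the PCGEM1 summits were at -76 in LNCaP replicate 1 and at -56 in LNCaP replicate 2. The DRAIC summits were at -52 in LNCaP replicate 1 and at -111 in resistant replicate 1. The MALAT1 summits were at 32 in LNCaP replicate 1, at 35 in resistant replicate 2 and at -69 in resistant replicate 1. The windows differed in composition. MALAT1 had a GC content of 73.7% with 37 CpG dinucleotides, above that of 88.5% of the 35116 promoters of the table, whereas PCGEM1 had 38% with 0 CpG and ranked at 8.65%. DRAIC lay between them with 52% and 5 CpG, and the median promoter had 58.7% and 14. The PCA3 window, which held no summit in any library, had 40.7% and 3 CpG.

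The 4 windows were searched on both strands for 7 short motifs. These included AGAACA, the core hexamer of androgen response elements, and the forkhead motif TGTTTAC. The motif of the prostate homeobox factor HOXB13 was written TTTATNG. That of the AP-1 factors was written as TGANTCA. The search for E-boxes used CACGTG, the site of MYC and its partners. The remaining motifs were AGATAA for factors of the zinc finger family of GATA1 and CGGAAG for ETS factors. PCGEM1 held AGAACA on the minus strand at -191, upstream of both of its summits, and 14.8% of all promoters hold that motif. PCA3 held AGATAA at -173, a motif found in 10.3% of promoters. DRAIC and MALAT1 held none of the 7. The shares of all promoters with each of the 7 lay between 3.42% for the forkhead motif and 19.5% for the ETS motif. A match is a run of letters and not a measured site.

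LNCaP cells had 56 and 58 summits in the 9 gene windows, and resistant cells had 50 and 35. Resistant cells thus had 0.746 summits there for each LNCaP summit, against 0.519 in the whole lists. Of the 77 regions, 24 (31.2%) were shared, 15 (19.5%) LNCaP-specific and 4 (5.19%) resistant-specific, and the other 34 had mixed membership. Among all regions of the series, 21.1% were shared, 27.5% LNCaP-specific and 3.84% resistant-specific. Without resistant replicate 2, whose list was the shortest (then with 12.0% of all regions), 12 regions were resistant-specific, and without LNCaP replicate 2 (5.23%) there were 7. With equal numbers of summits the 9 genes held 15 shared, 4 LNCaP-specific and 7 resistant-specific regions, beside 26.8%, 17.1% and 14.9% of all regions. Regions were merged anew in each of these settings, so these counts are not out of the 77. SCHLAP1, by far the longest of the genes, held 6 shared and 5 LNCaP-specific regions, and MALAT1 held 5 shared and no specific region. PCAT1 and PCGEM1 had no shared region. Only 7 of the 77 regions lay within 3 kb of an end of a protein-coding gene.

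**Figure D1:**
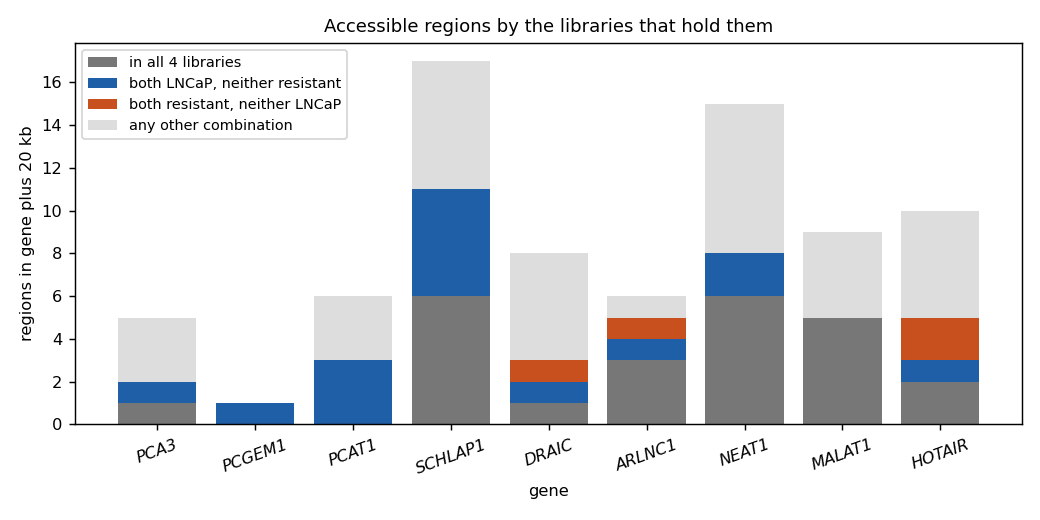
Number of merged accessible regions in each gene and the 20 kb on either side, stacked by the libraries that held them. Shared regions made up 24 of the 77, LNCaP-specific regions were present at every gene but MALAT1, and the 4 resistant-specific regions lay at DRAIC, ARLNC1 and HOTAIR.

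The strongest summit of each gene window was lower in resistant cells without overlap at 4 of the 9 genes, PCA3, PCGEM1, DRAIC and ARLNC1, higher at 0, and overlapped at the other 5. Over the 52247 genes of all kinds with a summit, 48.5% were lower and 12.9% higher, and over the 16367 long noncoding RNA genes with a summit 53.3% were lower and 11.4% higher. The median difference over the 9 genes was -4.27 percentile points, against -5.97 over all genes and -10.8 over long noncoding RNA genes. The share of lower genes among the 9 was thus near the background. Without LNCaP replicate 2, 7 genes were lower beside 61.8% of all genes, with medians of -15.0 and -6.66. Without resistant replicate 1, 7 were lower beside 66.8%, with medians of -8.64 and -10.2. Without resistant replicate 2, 4 were lower beside 51.3%, with medians of -2.15 and -2.61. With equal numbers of summits the split was different, with 3 genes lower (PCA3, DRAIC and ARLNC1) and 4 higher (PCAT1, NEAT1, MALAT1 and HOTAIR), and with 23.9% of all genes lower and 40.5% higher. The median difference was then 2.40 points for the 9 genes and 3.49 for all genes. PCA3, DRAIC and ARLNC1 were lower on both scales. With 50 kb in place of 20 kb they were still lower, by differences of -10.5, -3.97 and -22.7 points in turn. The median over all genes was then -4.60 points. At PCAT1, DRAIC, ARLNC1, NEAT1, MALAT1 and HOTAIR the strongest summit was not at the same site in every library.

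**Figure D2:**
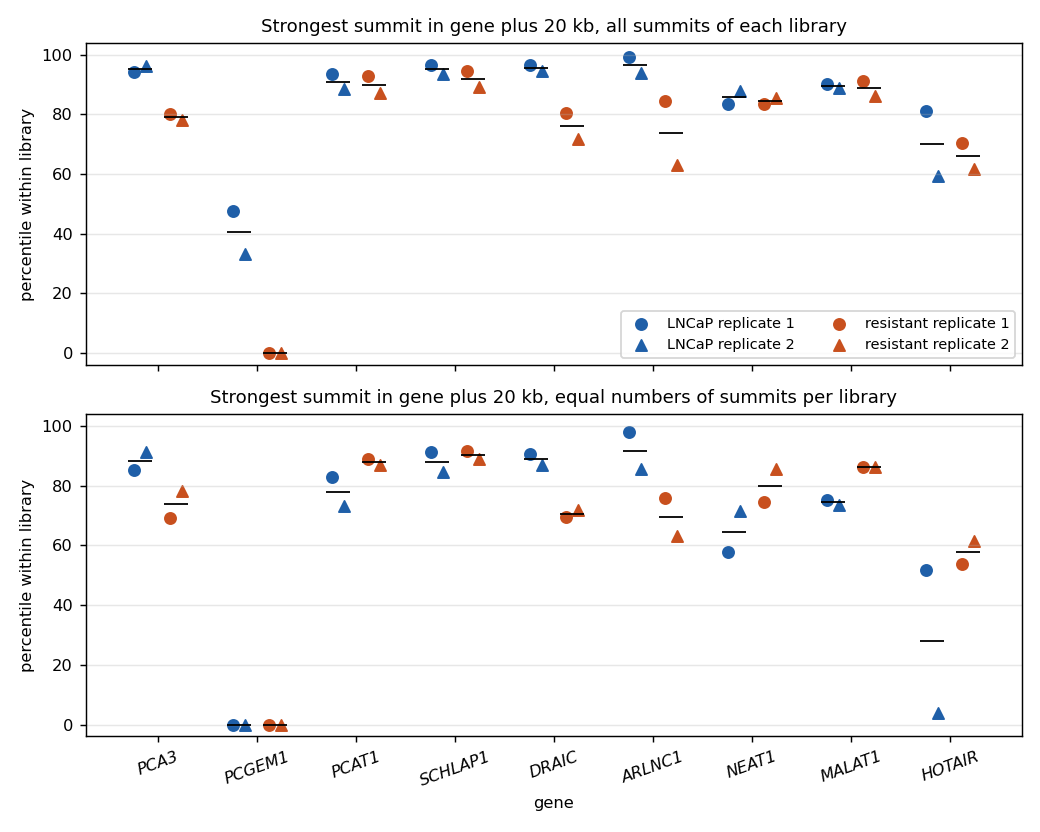
Percentile of the strongest summit in each gene plus 20 kb (vertical axis, 0 where there was none) for the 2 LNCaP and 2 resistant libraries, with bars at the group means, from all summits (top) and from equal numbers of summits (bottom). PCA3, DRAIC and ARLNC1 lie lower in resistant cells in both panels, and PCGEM1 is at 0 in every library in the bottom panel.

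In LNCaP cells the order of the strongest summits was led by ARLNC1 at 96.5 ± 3.80 (SD, n = 2), DRAIC at 95.4 ± 1.41, PCA3 at 95.2 ± 1.43 and SCHLAP1 at 95.0 ± 2.16, which lay within each other's spread. PCAT1 at 91.0 ± 3.38 and MALAT1 at 89.6 ± 1.08 followed and did not differ beyond their spread, and NEAT1 lay further down at 85.7 ± 3.06. HOTAIR at 70.2 ± 15.6 and PCGEM1 at 40.4 ± 10.4 came last. In resistant cells SCHLAP1 at 91.8 ± 3.91, PCAT1 at 89.99 ± 4.22, MALAT1 at 88.7 ± 3.45 and NEAT1 at 84.6 ± 1.46 led, the first 3 within each other's spread, and PCA3 at 79.2 ± 1.48, DRAIC at 76.1 ± 6.03, ARLNC1 at 73.8 ± 15.2 and HOTAIR at 65.95 ± 6.19 followed. From PCA3 down to HOTAIR, neighbours in this order did not differ beyond their spread, and PCGEM1, at 0, came last. A longer window can hold more summits and so a higher maximum. The windows ran from 47.9 kb at PCAT1 to 264.8 kb at SCHLAP1, so neither order compares the genes at equal length.

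Summits near the gene start were compared next. The start is known for the 4 genes with a strand, and for the others either end was used, always within 3 kb. Of the 6 genes with a summit there, 5 were lower in resistant cells without overlap (PCGEM1, PCAT1, SCHLAP1, DRAIC and NEAT1) and 0 higher. Their median difference was -29.1 points. Over all genes with a summit there 32.9% were lower and 20.4% higher, with a median of -1.92 points. Of the 9882 long noncoding RNA genes with a summit there, 3815 were lower and 1766 higher, with a median of -4.41 points. PCA3, ARLNC1 and HOTAIR had no summit at these places in any library. With equal numbers of summits PCAT1 and DRAIC were lower and NEAT1 and MALAT1 higher, beside 12.4% lower and 55.7% higher of all genes.

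Among the regions shared by all 4 libraries, 13 of the 24 at these genes were lower in resistant cells and 2 higher, with a median difference of -10.2 points. Of all shared regions of the series, 41.8% were lower and 17.7% higher, with a median of -4.66 points. The difference was below 0 in both replicate numbers for 15 of the 24, and for 49.3% of all. With equal numbers of summits the counts turned, with 3 of the 24 lower and 11 higher and a median of 11.3 points, beside 17.6% lower and 51.3% higher of all and a median of 11.7. The 3 lay at PCA3, DRAIC and ARLNC1. The higher regions numbered 5 without LNCaP replicate 1 (28.5% of all), 5 without LNCaP replicate 2 (23.5%) and 6 without resistant replicate 2 (35.9%). Of the 13 regions lower with all summits, 4 lay at SCHLAP1, 3 at NEAT1 and 2 each at ARLNC1 and MALAT1.

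DRAIC, described as a transcript that declines as prostate cancer cells become androgen independent and that restrains invasion, held 4 and 7 summits in LNCaP cells and 5 and 4 in resistant cells. A shared region 1033 bp inside the gene (chr15:69562495-69563009) had percentiles of 96.4 and 94.4 in LNCaP cells and of 64.9 and 50.9 in resistant cells. The LNCaP libraries were both high and the resistant libraries both lower, by 37.5 points, with a pooled SD of 7.07. With equal numbers of summits the values were 90.8 and 86.9 against 45.4 and 50.9, so that the difference was as large.

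Upstream of DRAIC, the LNCaP-specific region 7190 bp before the start (chr15:69554263-69554798) ranked at 91.3 and 87.5 in LNCaP cells and had no summit in resistant cells, on either scale. A resistant-specific region lay between it and the gene, 4172 bp before the start (chr15:69557264-69557832), at 64.3 and 38.2, or 44.6 and 38.2 with equal numbers, with no summit in LNCaP cells. The region over the start itself (chr15:69561194-69561918) had 66.2 and 67.2 in LNCaP cells, 8.28 in resistant replicate 1 and no summit in resistant replicate 2. With equal numbers it had 13.1 and 22.7 in LNCaP cells and no summit in resistant cells. Downstream of the gene, a region 5650 bp past its end (chr15:69576763-69577398) had 89.1 and 89.9 in LNCaP cells and 0 and 5.22 in resistant cells, and with equal numbers 71.9 and 76.3 against 0 and 5.22. Less than 1 kb nearer the gene, at chr15:69575915-69576423, the values were 0 and 82.7 in LNCaP cells and 80.4 and 71.8 in resistant cells, and that was the strongest place of the locus in both resistant libraries. Of these 6 regions, 4 were lower in resistant cells, 1 was open in resistant cells alone and 1 overlapped. With equal numbers that last region, at 0 and 59.3 against 69.5 and 71.8, was higher in resistant cells, and the other calls held. The regions over the start and past the end were singled out after their values were seen.

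ARLNC1, an androgen-induced RNA of prostate cancer, held 4 and 5 summits in LNCaP cells and 4 and 4 in resistant cells. Its strongest region (chr16:80900236-80900767), 7912 bp beyond the higher-coordinate end of the gene and in no annotated gene, had percentiles of 99.2 and 93.9 in LNCaP cells and of 84.6 and 57.0 in resistant cells. This was the highest percentile of any region at the 9 genes. Both resistant libraries lay lower, by 25.8 points on average with a pooled SD of 14.1, and they differed widely from each other. With equal numbers the values were 98.0 and 85.5 against 76.0 and 57.0. Inside the gene, a region 9203 bp from its lower-coordinate end (chr16:80837665-80838206) had 76.1 and 83.7 in LNCaP cells and 61.3 and 63.0 in resistant cells, 17.7 points lower, but 1.36 points higher with equal numbers of summits. A resistant-specific region lay 8132 bp from that end (chr16:80836537-80837197), at 49.5 and 4.32, or 21.5 and 4.32 with equal numbers. An LNCaP-specific region 17473 bp beyond the other end (chr16:80909804-80910334) had 70.6 and 20.4, or 24.5 and 0 with equal numbers, so the replicates of each specific region differed widely. The region inside the gene at 9203 bp was named after its values were seen.

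PCGEM1, an androgen-regulated and prostate-restricted RNA, had a single accessible region, at its promoter (chr2:192749519-192750039). It ranked at 47.8 and 33.1 in LNCaP cells, with scores of 10.7 and 6.63, and neither resistant library had a summit in the gene or within 20 kb of it. The region was below the middle of both LNCaP lists. Cut to equal numbers, the LNCaP lists lost this region too, so that PCGEM1 was at 0 in all 4 libraries and showed no difference between the cells.

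PCA3, a prostate-restricted RNA transcribed from within PRUNE2, held 3 and 2 summits in LNCaP cells and 3 and 1 in resistant cells. Its only shared region (chr9:76799310-76799913) lay 12042 bp downstream of the gene, inside PRUNE2, and had percentiles of 94.2 and 96.3 in LNCaP cells and of 80.3 and 78.2 in resistant cells. The replicates were close, and the difference of -16.0 points exceeded their pooled SD of 1.45. With equal numbers the values were 85.2 and 91.2 against 69.3 and 78.2, a difference of -14.4 points. An LNCaP-specific region 5639 bp downstream (chr9:76792926-76793491), also inside PRUNE2, had 65.9 and 72.5, or 12.4 and 35.3 with equal numbers. Since both regions lie in PRUNE2 as well, the lists do not say which gene they belong to. Within the PCA3 gene itself the only summit, in resistant replicate 1, ranked at 2.01.

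**Figure D3:**
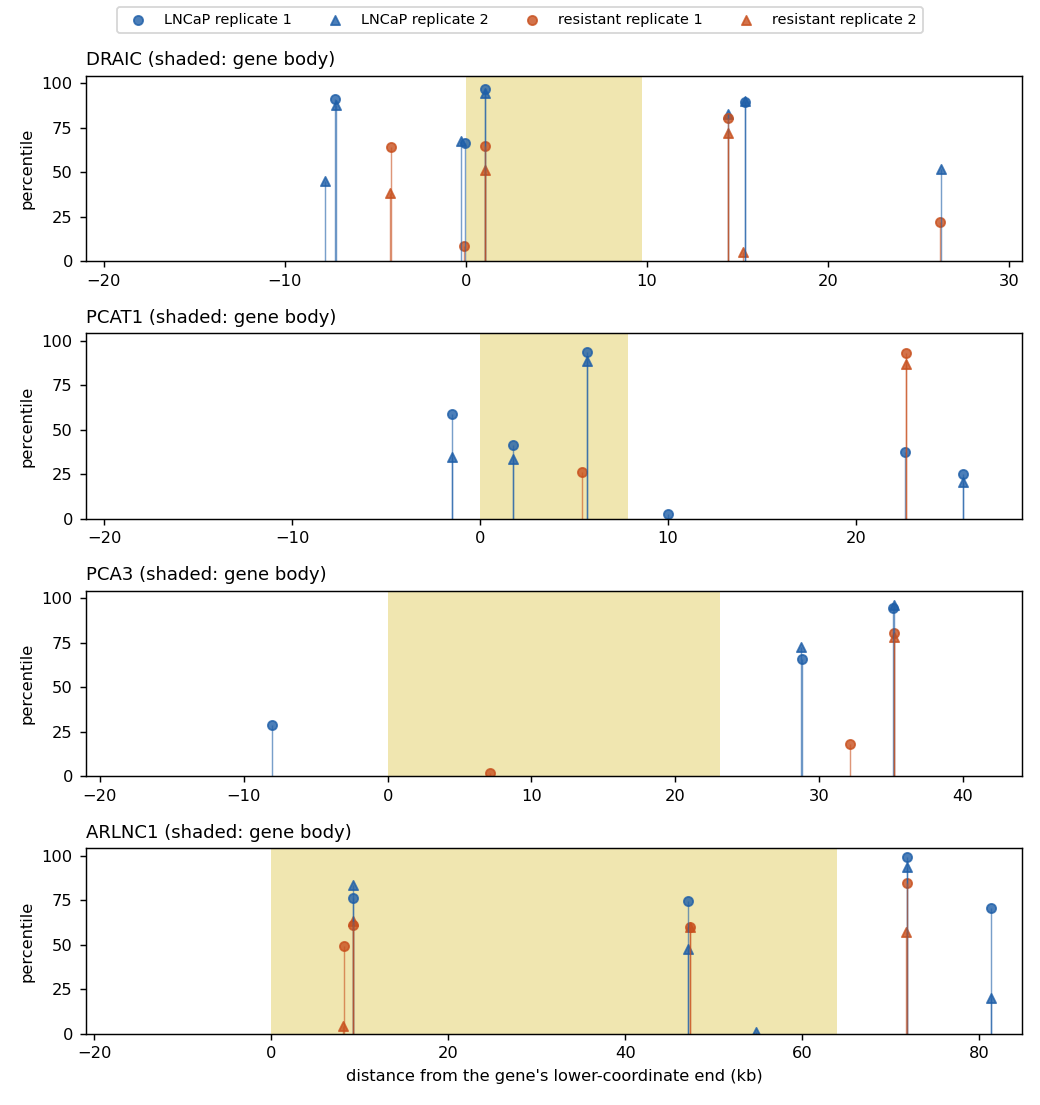
Percentile of each summit (vertical axis) at DRAIC, PCAT1, PCA3 and ARLNC1, with the gene body shaded. The horizontal axis is the distance in kb from the lower-coordinate end of the gene. LNCaP and resistant summits coincide 1033 bp inside DRAIC at lower resistant ranks, and at PCAT1 the strong LNCaP and strong resistant summits lie at different places.

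Of the genes tied to chromatin complexes, PCAT1 had its strongest sites at different places in LNCaP and resistant cells. It is an RNA linked to Polycomb repression and to cell proliferation, and its annotated body lies inside another long noncoding RNA gene, LOC105375751. It held 6 and 4 summits in LNCaP cells and 2 and 1 in resistant cells. The region inside the gene near its higher-coordinate end (chr8:127018336-127019083) had percentiles of 93.4 and 88.6 in LNCaP cells, 26.3 in resistant replicate 1 and none in resistant replicate 2. The difference was -77.8 points with a pooled SD of 13.3, and with equal numbers the values were 82.9 and 73.1 against 0 and 0. By contrast, a region 14794 bp beyond that end (chr8:127035540-127036072) had 37.3 and 0 in LNCaP cells and 93.0 and 87.0 in resistant cells, 71.3 points higher with a pooled SD of 18.9. Its scores were 80.2 and 38.8 in resistant cells against 8.19 in LNCaP replicate 1. With equal numbers the values were 0 and 0 against 89.1 and 87.0. The strongest summit of the whole window lay at different sites in the cells, and its values overlapped with all summits, at 93.4 and 88.6 against 93.0 and 87.0. With equal numbers it was higher in resistant cells, at 82.9 and 73.1 against 89.1 and 87.0. Both of the named LNCaP-specific regions were weaker. One lay 1513 bp outside the lower-coordinate end (chr8:127011387-127011896) at 58.7 and 34.5, and the other 1744 bp inside it (chr8:127014633-127015163) at 41.5 and 33.6. Neither was left in any list with equal numbers. The region inside the gene near its higher-coordinate end was singled out after its values were seen.

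SCHLAP1, an RNA of aggressive prostate cancer reported to oppose the SWI/SNF remodelling complex, spans 224836 bp and held 17 and 16 summits in LNCaP cells and 10 and 6 in resistant cells. Its strongest region, 23187 bp from the lower-coordinate end (chr2:180715026-180715578), had percentiles of 96.6 and 93.5 in LNCaP cells and of 94.6 and 89.1 in resistant cells. The groups overlapped there, with a difference of -3.21 points and a pooled SD of 3.16. Of its 6 shared regions, 4 were lower in resistant cells and 2 overlapped. The region at 31012 bp (chr2:180722772-180723633) had 73.1 and 40.5 against 12.4 and 23.8, and that at 107235 bp (chr2:180799071-180799604), singled out after its values were seen, had 83.7 and 81.4 against 73.0 and 38.4. With equal numbers both overlapped, at 30.9 and 0 against 0 and 23.8 and at 58.0 and 56.3 against 58.1 and 38.4. Near the lower-coordinate end the values were 69.1 and 49.5 against 31.1 and 46.4, with only a narrow gap between LNCaP replicate 2 and resistant replicate 2, and with equal numbers of summits the difference turned to 12.9 points higher. The strongest LNCaP-specific regions were at 242926 bp (chr2:180934654-180935407) with 60.9 and 47.8 and at 8091 bp (chr2:180699940-180700450) with 23.9 and 67.5. With equal numbers the former was in no list and the latter in that of LNCaP replicate 2 alone, at 23.4.

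HOTAIR, which is transcribed from the HOXC cluster and is known for binding Polycomb proteins, had no summit within 3 kb of either end in any library, and 1 summit in its body, in LNCaP replicate 2 at 27.1. Its window held 4 and 6 summits in LNCaP cells and 7 and 6 in resistant cells, the only window with more summits in resistant cells, and the regions named here lay at its HOXC neighbours. A resistant-specific region (chr12:53984781-53985287) lay in the noncoding gene HOXC-AS3 and 112 bp from an end of the homeobox gene HOXC10, at 62.0 and 49.5, and was kept with equal numbers of summits at 41.0 and 49.5. The other resistant-specific region (chr12:53994247-53995053), 558 bp from an end of HOXC-AS2, was weak, at 22.2 and 4.37. A shared region at the homeobox gene HOXC12 (chr12:53954651-53955403) had 45.2 and 4.32 in LNCaP cells and 66.5 and 42.3 in resistant cells. The groups overlapped at these values, and with equal numbers they were 0 and 0 against 48.0 and 42.3. Inside HOXC10 (chr12:53989053-53989579) an LNCaP-specific region had 24.7 and 27.2, and 1 summit of resistant replicate 2 alone (chr12:53985968-53986468) had 61.6. The strongest summit of the window had 81.2 and 59.2 in LNCaP cells and 70.3 and 61.6 in resistant cells and overlapped. Equal numbers gave 51.8 and 3.97 against 53.9 and 61.6. These are not values of 1 site. The 61.6 is the summit of resistant replicate 2 alone in HOXC10. The others lay 1467 bp from an end of HOXC11 (chr12:53978346-53979377), a region named after its values were seen. Resistant replicate 2 had 31.1 there on both scales, and the groups overlapped on both.

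The nuclear body genes NEAT1 and MALAT1 lie near each other on chromosome 11. Their strongest summits overlapped between the cells with all summits and were higher in resistant cells with equal numbers. NEAT1 held 10 and 9 summits in LNCaP cells and 11 and 6 in resistant cells. The strongest summit had percentiles of 83.5 and 87.9 in LNCaP cells and of 83.5 and 85.6 in resistant cells, a difference of -1.12 points with a pooled SD of 2.40. With equal numbers it had 57.7 and 71.4 against 74.4 and 85.6. In resistant cells it lay at chr11:65454953-65455572, 32 bp from an end of the pseudogene FAUP4, where the LNCaP libraries had 75.7 and 72.0. This region was 10.7 points higher in resistant cells, with a pooled SD of 2.09, and with equal numbers it had 37.4 and 34.2 against 74.4 and 85.6. The region 2663 bp outside the lower-coordinate end (chr11:65419870-65420422) went the other way, with 70.7 and 72.5 against 58.9 and 41.4, but was 8.84 points higher in resistant cells with equal numbers. Near the gene's ends as a whole the values were 70.7 and 72.5 against 70.5 and 62.4, close to each other in replicate 1, and with equal numbers they were 24.6 and 35.3 against 54.2 and 62.4, higher in resistant cells. Both LNCaP-specific regions were weak. The one at chr11:65446657-65447376 had 5.84 and 20.9, and the one at chr11:65448434-65448967 had 13.6 and 27.5.

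MALAT1 held 7 and 8 summits in LNCaP cells and 8 and 7 in resistant cells, though the lists of the resistant cells were far shorter. Of its 5 shared regions, 2 were lower in resistant cells, 1 was higher and 2 overlapped. The GC-rich window printed above lies in the region over the MALAT1 start (chr11:65497419-65498044). The summit of LNCaP replicate 2 lay beyond that window, 56 bp past the start. In the region the values were 70.7 and 81.8 in LNCaP cells and 73.0 and 72.2 in resistant cells, and the groups overlapped. With equal numbers they were 24.7 and 57.1 against 58.0 and 72.2, higher in resistant cells. The strongest region, at -10007 bp from the start in the noncoding gene LINC02736 (chr11:65487473-65487986), had 90.3 and 83.1 against 91.2 and 86.3 and overlapped too, while equal numbers gave 75.1 and 60.3 against 86.3 and 86.3. A region at -5783 bp (chr11:65491639-65492238) had 59.6 and 69.5 against 42.4 and 39.4, 23.7 points lower in resistant cells but 10.8 points higher with equal numbers, where the groups overlapped. A region at -3719 bp (chr11:65493764-65494279) was higher in resistant cells, with 0 and 33.1 against 67.2 and 50.9, or 0 and 0 against 49.0 and 50.9 with equal numbers. It too was singled out after its values were seen. A region singled out after its values were seen lay in the antisense gene TALAM1 (chr11:65506947-65507893), at 89.7 and 88.8 against 80.0 and 81.8. It differed by -8.32 points, with a pooled SD of 1.00. With equal numbers it was 1.82 points higher in resistant cells.

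**Figure D4:**
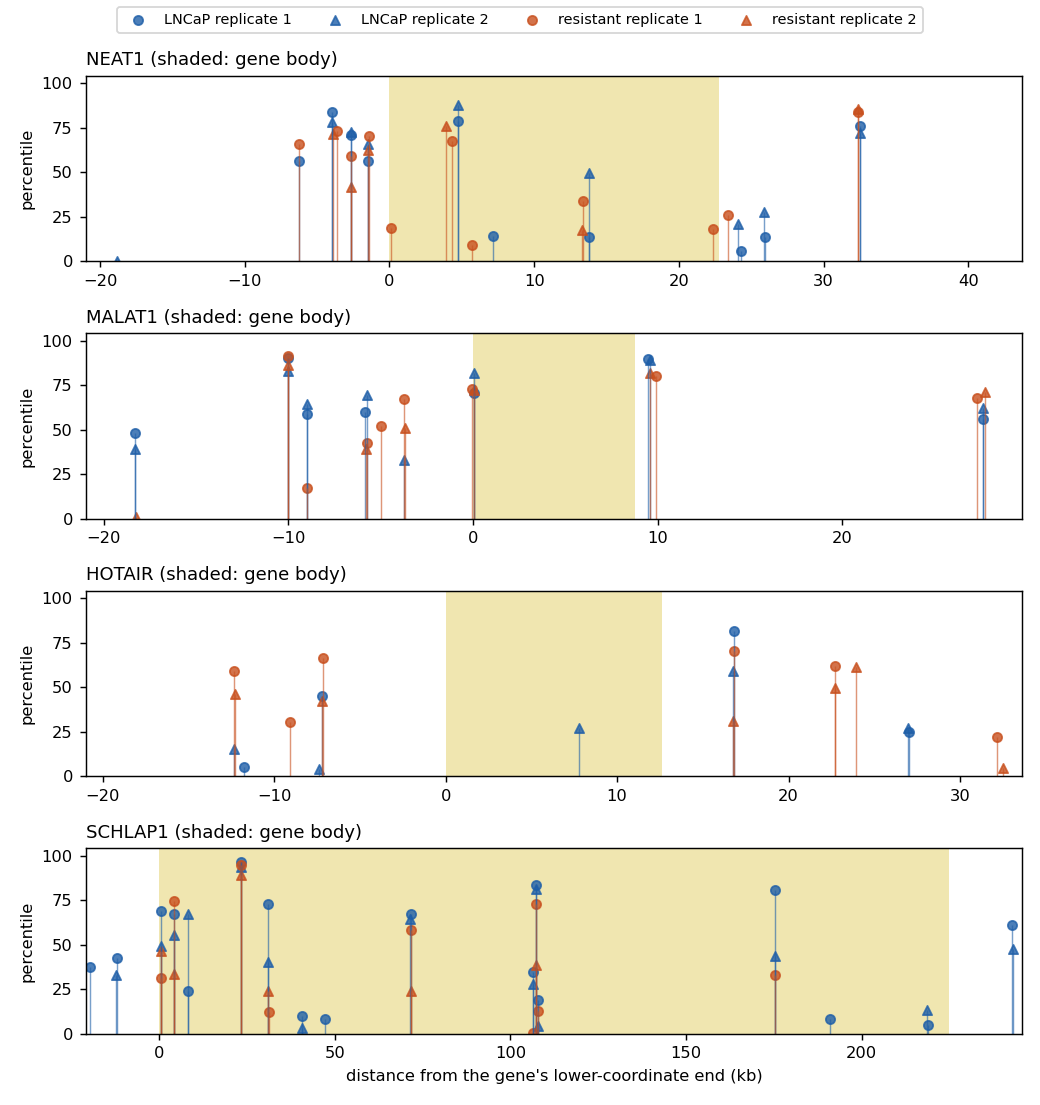
Percentile of each library's strongest summit in each region (vertical axis) at NEAT1, MALAT1, HOTAIR and SCHLAP1, with the gene body shaded. The horizontal axis is the distance in kb from the lower-coordinate end of the gene. The HOTAIR gene is almost free of summits, and summits of both cells stand at the start of MALAT1, at 70.7 and 81.8 in LNCaP and 73.0 and 72.2 in resistant cells.

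A list of 32 other genes of noncoding RNA linked to prostate cancer or androgen signalling was counted in the same way (the table used gives 1 of them, TUG1, as protein-coding and 1 as a transcribed pseudogene), and 31 had a summit in their window, all but H19. Of these, 15 were lower and 6 higher in resistant cells without overlap, with a median difference of -1.59 points, and with equal numbers 29 had a summit, of which 6 were lower and 13 higher, with a median of 3.75. The background shares are those given for all genes. CASC8, in the same chromosome 8 region as PCAT1, had percentiles of 98.2 and 94.7 in LNCaP cells and of 36.1 and 0 in resistant cells, and the difference was -78.4 points, or -91.5 with equal numbers. PCAT2 and PRNCR1, neighbours of PCAT1 that take their value from the same summit, had 88.8 and 81.4 against 51.1 and 36.2. LINC01116 had 56.1 and 51.7 against no summit, and no summit in any library with equal numbers. HOTTIP, a noncoding gene of the HOXA cluster, had 45.9 and 15.0 against 81.9 and 73.3, higher by 47.2 points, or by 72.6 with equal numbers. With 50 kb in place of 20 kb, PCAT2 and PRNCR1 were 4.89 points higher and HOTTIP differed by -12.1 points, so that their directions depended on the window. CASC8 stayed lower with 50 kb, at a smaller difference of -20.4 points.

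For the 3 genes with the largest difference of the strongest summit, the noncoding genes outside the 9 windows with the most similar 4 percentiles were sought, by Euclidean distance over the 4 libraries. For DRAIC these were LOC101929555 at 1.82 points and LOC105369531 at 1.91, and for ARLNC1 they were LOC124904166 at 3.36 and TTC39A-AS1 at 3.56. For PCGEM1, LINC01324 and LOC107984303 had the same 4 values, a distance of 0, since their summits carried the same scores as those of PCGEM1.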

How the data were processed

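Per the labels, ATAC-seq libraries were made from LNCaP and resistant cells, 2 each. The submitters' processing notes name Bowtie2 2.2.5, SAMtools 1.6, MACS2 2.2.6, deepTools 3.5.2 and HOMER 4.11 and the build hg38, and the thresholds are not given in the sources used here. The deposited values are the authors' −log10 p-values or q-values per summit, called per library, and which of the 2 is not stated. The lowest score of each list was just above that of 0.05.

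The genes and gene lists were chosen with earlier results of these data known. Gene positions and biotypes came from the RefSeq table, which gives no strand, so the strand was taken from the promoter table where a gene was found. The gene window was the gene plus 20 kb. Named for each gene were the region with the highest mean percentile, each resistant-specific region, the 2 strongest LNCaP-specific regions and the shared region with the largest difference; of the other noncoding genes, at most the 4 with the largest differences without overlap. Genes sharing a value are named together. The replicate numbers stand under a batch label and were checked for pairing: over 31869 shared regions the deviations of same-numbered libraries had a correlation of -0.0128. No 2 libraries held the same summit with an identical score. Some items are not reported here. The scripts were tested on simulated data. Alternatives were other widths, windows and score limits, equal numbers of summits, membership by 1 library, ranks among shared regions and leaving out each library. Python 3.11.15, numpy 2.4.6, pandas 2.3.3 and matplotlib 3.10.9 were used.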

Additional observations from a re-analysis of the deposited data

How the results depend on the processing

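The lists hold no counts, and where all summits and equal numbers of summits disagree, a difference in accessibility and one in list length cannot be told apart. Among the single genes and regions, 461 alternative values moved by less than the replicate spread, 175 moved by more and 14 turned. Only a change of sign where the groups had not overlapped with all summits was counted as turned. The first 2 of these counts include values fixed by construction, so they do not say how stable the results are. Using the replicate number as a block changes only the calls of direction, not the differences. PCA3, ARLNC1 and HOTAIR had no summit near their starts or ends, so their differences there could not move. Ranks among shared regions remove every region that is not shared, so its difference vanished whatever its scores. With equal numbers the genes held 15 shared, 4 LNCaP-specific and 7 resistant-specific regions. The summit ratio was 1.27, where that of the whole lists is 1 by construction. Then 4 genes were higher, beside 40.5% of all genes, and the median was 2.40, beside 3.49. Near starts 2 were lower and 2 higher, beside 12.4% and 55.7%. Of the regions in all 4 full lists 3 were lower and 11 higher, beside 17.6% and 51.3%, with a median of 11.3, beside 11.7. Turned with equal numbers were SCHLAP1 near its ends (12.9, also as the region there), NEAT1 near its ends (28.4), the ARLNC1 region at 9203 bp (1.36), the NEAT1 region at 2663 bp (8.84), and at MALAT1 those at -5783 bp (10.8) and in TALAM1 (1.82). PCA3 turned to 1.01 in the gene alone and with 5 kb, where only the weak summit in its body was left. NEAT1 near its ends turned to 6.08 with ranks among shared regions and to 13.0 within 1 kb, with overlap in both. Within 1 kb the only library with a summit was resistant replicate 1, at 26.1. HOTTIP turned to -12.1, and PCAT2 and PRNCR1 to 4.89, with 50 kb.

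A width of 100 bp gave 15 shared regions, beside 16.3% of all regions. A score of at least 10 gave 13 shared and 7 LNCaP-specific regions, beside 21.2% and 25.0% of all regions. It gave 3 genes lower near starts, beside 23.6% of all genes with a summit there. The gene alone gave 12, 4 and 1 shared, LNCaP-specific and resistant-specific regions. Its median was -13.5, beside -12.3 for all genes. With 5 kb there were 8 LNCaP-specific and 2 resistant-specific regions and a median of -17.7, beside -5.02 for all genes. With 50 kb there were 42 shared and 23 LNCaP-specific regions and 2 genes higher, beside 11.9% of all genes. The shares of each class among all regions do not depend on these windows. Within 1 kb, 3 genes were lower near starts, beside 26.3% of all genes with a summit there. Membership by at least 1 library gave 38 shared, 26 LNCaP-specific and 13 resistant-specific regions, beside 35.1%, 52.0% and 12.9% of all regions. Ranks among shared regions gave 1 gene higher, MALAT1 (7.36), beside 36.1% of all genes, and 1 gene lower near starts, beside 15.0%. PCA3 (-20.7), DRAIC (-48.8) and ARLNC1 (-29.7) were lower in their windows. The median was 0, beside 1.83 for all genes. That 0 is the value of PCGEM1 and PCAT1, which have no shared region and so are at 0 in every library here. Leaving out summits near protein-coding genes, chosen after seeing the data, gave 1 gene higher, beside 8.10% of all genes. The causes were not tested. With the replicate number as a replicate block, 6 genes were lower in both pairs and 0 higher, beside 54.6% and 16.7% of all genes. Near starts 5 were then lower, beside 38.1% of all genes with a summit there.
Leaving out 1 library at a time gave 25 to 30 shared, 17 to 22 LNCaP-specific and 5 to 12 resistant-specific regions, a summit ratio of 0.614 to 0.877, 4 to 7 genes lower and 0 to 1 higher with a median of -15.0 to -2.15, and near starts 5 to 6 lower and 0 to 1 higher with a median of -9.20 to -3.24. Of the regions in all 4 lists, 13 to 16 were lower and 2 to 6 higher, with a median of -13.5 to -7.84. The 12 resistant-specific regions came without resistant replicate 2 and 7 without LNCaP replicate 2. The 7 lower genes came without LNCaP replicate 2 or resistant replicate 1, with medians of -15.0 and -8.64, and -2.15 came without resistant replicate 2. Near starts the median was -9.20 without LNCaP replicate 1, -9.18 without resistant replicate 1 and -3.24 without resistant replicate 2. For all genes with a summit there it was -1.15, -4.85 and -0.127 in turn. The medians of the 9 genes near starts count those without a summit there as 0. The summit ratio of the whole lists ran from 0.406 without resistant replicate 1 to 0.631 without resistant replicate 2.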
